A study of Homo sapiens with 6 samples.

Results

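The Wnt and LGR stem cell genes are 10 genes taken by symbol from the deposited count table, which holds 42656 gene rows. They are the R-spondin receptors LGR4, LGR5 and LGR6, the membrane ubiquitin ligases RNF43 and ZNRF3, the scaffold AXIN2, the TCF/LEF factors TCF7L2 and LEF1, and the transcription factors SOX9 and ASCL2. They were chosen because MEX3A, the gene depleted in the series, marks intestinal stem cells. The samples are cultures of TOV21G, an established human line from an ovarian clear cell carcinoma. RNA was collected on day 3 after lentiviral transduction at a multiplicity of infection of 50. The control group received a scrambled hairpin (shCtrl, labelled wild type, 3 libraries), the other group a hairpin against MEX3A (shMEX3A, labelled MEX3A knockdown, 3 libraries), and each group rests on 1 hairpin. Both groups carried a lentiviral hairpin construct and grew in the same medium with 15% serum. The title of the series ties MEX3A to mitochondrial fitness, tumorigenesis and liver metastasis.

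Wnt ligands bind Frizzled receptors with LRP5 or LRP6, which stops the destruction complex of AXIN, GSK3 and casein kinase from marking beta-catenin for degradation. Stabilised beta-catenin enters the nucleus and works through TCF and LEF factors on target genes such as AXIN2, RNF43 and, in the intestinal crypt, LGR5 and ASCL2. RNF43 and ZNRF3 remove Frizzled receptors from the cell surface, and R-spondins bound to LGR receptors clear these ligases away, so that the receptors stay and the signal rises. In crypts LGR5 and ASCL2 mark dividing stem cells, while LGR4 is expressed more widely and SOX9 is found in stem and progenitor cells of many epithelia.

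Depth ran from 34662635 to 48228216 counts per library. Levels are in CPM, the read count per library total after TMM scaling, given as mean ± SD over 3 libraries, and differences are log2 fold changes of shMEX3A over shCtrl. MEX3A itself was 3.31-fold lower in shMEX3A, at 68.8, 70.7 and 67.6 CPM in the shCtrl libraries and 19.6, 21.0 and 22.2 CPM in the shMEX3A libraries. Its 3 paralogues were called higher, MEX3D by 0.88, MEX3C by 0.37 and MEX3B by 0.21 on the log2 scale. Of 15679 tested genes, 69.7% were called at an adjusted p of 0.05 (34.0% higher, 35.6% lower in shMEX3A), so a call by itself is common in these data. All 13 clear cell carcinoma markers listed passed the filter on low counts, at very different levels. PAX8, a transcription factor of Müllerian epithelium, had at least 6980 counts in every library. KRT7 had only 67 to 250 counts, and CDH1 went from 4.23 ± 0.428 to 1.59 ± 0.310 CPM. The summed level of the 13 markers was 3803 to 4013 CPM in shCtrl and 3138 to 3337 CPM in shMEX3A. SPP1 alone went from 2841 ± 93.4 to 1443 ± 85.2 CPM, while TFPI2 went from 69.0 ± 3.08 to 605 ± 10.7 CPM. Of 10 intestinal epithelial markers, 8 had at most 10 counts in each library, with CDX1, FABP2, GPA33 and OLFM4 at 0. Their sum was 0.649 to 1.12 CPM in shCtrl and 1.74 to 2.25 CPM in shMEX3A, where CDH17 had 52 to 87 counts. Fibroblast markers summed to 584 to 597 CPM in shCtrl and 1249 to 1284 CPM in shMEX3A. The collagen genes COL1A1 and COL1A2 carried most of that sum, and 6 of the 10 markers had at most 10 counts in each library. Leukocyte markers summed to 7.64 to 8.72 CPM in shCtrl and 10.7 to 11.1 CPM in shMEX3A, mostly CD68, with CD3E, MS4A1 and NKG7 at 0. Endothelial markers summed to 1.01 to 1.18 and 0.797 to 1.14 CPM, with KDR, EMCN and CLDN5 at 0, although CDH5 had 2, 2 and 1 counts in shCtrl and 22, 22 and 10 in shMEX3A. The part of these shifts in the results was not tested. In bulk RNA, fewer cells expressing a gene and less RNA per cell cannot be told apart. Whether the libraries of a group are separate cultures is not in the labels, and the p-values cover the spread among these libraries, which may be technical.

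Promoter sequences are shown for LGR4 and TCF7L2, the receptor and the factor that made up most of their families' level here. They are the 250 bases before a transcript start in RefSeq (GRCh38.p14), 5′ to 3′ on the gene's strand, and 5 of the 10 genes matched an entry, with 10 windows in all. The core bound by TCF and LEF factors was searched on both strands as 4 strings of letters, and capitals mark a match. One string was CTTTGAA. Another was CTTTGAT. A further string was CTTTGTA. The last was CTTTGTT. These strings cannot overlap each other on a strand. The window before LGR4 is chr11:27472791-27473040 on the minus strand, of which 167 bases lie under exon sequence of another gene, AC100771.2. The first TCF7L2 window is chr10:112949997-112950246 and the second chr10:113126383-113126632, both on the plus strand, the second inside the gene.
LGR4: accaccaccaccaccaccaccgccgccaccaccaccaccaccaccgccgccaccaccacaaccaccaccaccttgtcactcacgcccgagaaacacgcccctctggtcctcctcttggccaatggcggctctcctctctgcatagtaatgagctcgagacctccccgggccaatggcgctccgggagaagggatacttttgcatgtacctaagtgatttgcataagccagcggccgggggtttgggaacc
TCF7L2 first start: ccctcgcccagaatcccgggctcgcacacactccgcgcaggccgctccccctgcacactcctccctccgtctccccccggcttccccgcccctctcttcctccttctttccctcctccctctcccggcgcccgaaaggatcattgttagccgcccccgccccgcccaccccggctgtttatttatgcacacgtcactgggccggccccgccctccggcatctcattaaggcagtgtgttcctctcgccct
TCF7L2 second start: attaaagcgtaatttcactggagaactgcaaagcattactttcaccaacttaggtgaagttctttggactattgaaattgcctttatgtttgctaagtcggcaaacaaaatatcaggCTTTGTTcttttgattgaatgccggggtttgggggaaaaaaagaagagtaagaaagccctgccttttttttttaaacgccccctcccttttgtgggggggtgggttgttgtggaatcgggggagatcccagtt
The second TCF7L2 window held CTTTGTT on the plus strand, beginning 133 bases before the transcript start. It was the only 1 of the 10 windows with a match, and 12.0% of 35116 RefSeq windows of this length had one. A match of letters is no binding site, and the gene-level counts do not tell the starts of TCF7L2 apart.

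Of the 10 genes, 6 passed the filter on low counts, and all 6 differed between the groups, with 4 higher and 2 lower in shMEX3A (69.7% of all tested genes were called, 34.0% higher and 35.6% lower). The 6 libraries separated into non-overlapping groups for each of the 6 genes, as they did for 72.3% of tested genes. The median log2 fold change of the 6 was 0.48, with a range from -0.55 to 0.75, beside a median of -0.01 over all tested genes. The receptor LGR4 and the ligase ZNRF3 fell, while the ligase RNF43, the scaffold AXIN2, and the factors TCF7L2 and SOX9 rose. Their sizes were moderate for these data, since 21.4% of tested genes had a larger absolute log2 fold change than TCF7L2 and 48.9% a larger one than AXIN2. The remaining genes, LGR5, LGR6, LEF1 and ASCL2, had at most 6 counts in any library and entered no test.

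**Figure D1:**
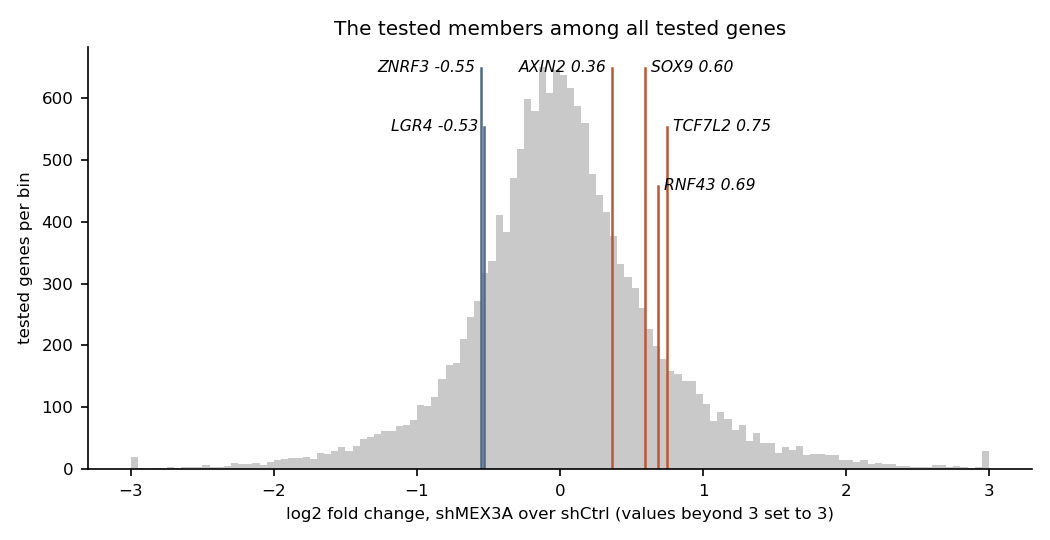
Histogram of the log2 fold change (shMEX3A over shCtrl, x axis) of the 15679 tested genes, as genes per bin on the y axis, with the 6 tested members as lines (red higher, blue lower). ZNRF3 at -0.55 and LGR4 at -0.53 lie left of 0 and AXIN2 at 0.36, SOX9 at 0.60, RNF43 at 0.69 and TCF7L2 at 0.75 right of it, all within the body of the distribution.

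LGR4, which binds R-spondins at the cell surface, was by far the most abundant LGR receptor of these cells and was lower in shMEX3A. The shCtrl libraries held 164, 165 and 175 CPM and the shMEX3A libraries 119, 113 and 118 CPM. Every shMEX3A library lay below every shCtrl library, by a margin several times the spread within a group. The mean went from 168 ± 5.91 to 116 ± 3.42 CPM (n = 3 each), or 1.45-fold lower (log2 fold change -0.53, SE 0.0339, 95% interval -0.60 to -0.46, adjusted p = 7.95e-17, edgeR quasi-likelihood test). LGR4 spans 27365961 to 27472775 of chromosome 11, minus strand, in GENCODE 29 on GRCh38, and shares no exon base with another gene.

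LGR5, the crypt stem cell receptor (chromosome 12, 71439770 to 71586310), had 0 counts in all 6 libraries. A count of 0 allows up to 3 counts, or 0.0637 to 0.0885 CPM depending on the library, for counting error only. LGR6, the third receptor (chromosome 1, 202193901 to 202319781), had 2, 1 and 1 counts in shCtrl and 0, 6 and 1 in shMEX3A. Its groups overlapped, and the summed counts of 4 and 7 gave a depth-scaled ratio of 1.71 with a 95% counting interval from 0.434 to 7.95. LGR4 therefore held at least 99.8% of the summed LGR level per kilobase of exon in every library, and that sum went from 26.6 ± 0.930 to 18.4 ± 0.525 CPM per kb.

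The surface ligases ZNRF3 and RNF43, which share the task of removing Frizzled receptors, differed in opposite directions. ZNRF3 stood at 114, 126 and 125 CPM in shCtrl and at 85.9, 82.6 and 80.7 CPM in shMEX3A. All 3 shMEX3A libraries were below the lowest shCtrl library. Its mean fell from 122 ± 6.35 to 83.0 ± 2.62 CPM (n = 3 each), a log2 fold change of -0.55 (SE 0.0378, 95% interval -0.63 to -0.47, adjusted p = 1.65e-15, edgeR quasi-likelihood test). ZNRF3 spans 28883592 to 29057487 of chromosome 22, plus strand, and shares no exon base with another gene.

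RNF43 was far less abundant, with 3.61, 3.95 and 3.37 CPM in shCtrl and 6.13, 5.65 and 5.78 CPM in shMEX3A. Here every shMEX3A library lay above every shCtrl library. The mean rose 1.61-fold, from 3.64 ± 0.292 to 5.85 ± 0.247 CPM (log2 fold change 0.69, SE 0.108, 95% interval 0.47 to 0.90, adjusted p = 5.85e-07, edgeR quasi-likelihood test, n = 3 each). These levels rest on 135 to 158 counts per library in shCtrl and 196 to 266 in shMEX3A. RNF43 spans 58352500 to 58417595 of chromosome 17, minus strand,, and 73.9% of its exon bases lie under exons of other genes. The same-strand gene AC004687.2, which has no row in the deposited counts, covers 57.6% of the RNF43 exon bases. The antisense TSPOAP1-AS1, with 43 to 70 counts, covers 20.3%, and the abundant same-strand SUPT4H1, with 2496 to 3626 counts, 1.91%. The strand setting of the counting is not given in the sources used here, and the part of these overlaps in the RNF43 value was not tested.

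Per kilobase of exon, ZNRF3 made up most of the ligase level in both groups. RNF43 held 2.71% ± 0.234 of the summed RNF43 and ZNRF3 level in shCtrl and 6.14% ± 0.147 in shMEX3A, and no shMEX3A library came near the shCtrl values of 2.44% to 2.85%. The sum of both ligases followed ZNRF3 and went from 17.96 ± 0.917 to 12.7 ± 0.403 CPM per kb, so the rise of RNF43 was small on this scale. The length used for RNF43 includes the 73.9% of its exon bases under other genes, while ZNRF3 has no such overlap. The RNF43 shares may thus be too low, and the part of the overlap in them was not tested.

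AXIN2, the scaffold of the destruction complex and a widely used readout of beta-catenin signalling, was slightly higher in shMEX3A. The shCtrl libraries held 5.26, 5.84 and 5.96 CPM and the shMEX3A libraries 7.70, 7.03 and 7.20 CPM. The groups did not overlap, but the gap between the highest shCtrl and the lowest shMEX3A library was narrow. The mean went from 5.69 ± 0.374 to 7.31 ± 0.349 CPM, a 1.29-fold rise (log2 fold change 0.36, SE 0.0927, 95% interval 0.18 to 0.55, adjusted p = 0.000696, edgeR quasi-likelihood test, n = 3 each). This was the smallest difference among the 6 tested genes. AXIN2 spans 65528563 to 65561647 of chromosome 17, minus strand. The same-strand gene AC004805.1, which has no row in the deposited counts, covers 25.2% of its exon bases. The part of this overlap in the AXIN2 value was not tested. Its partner AXIN1, the constitutive scaffold, went from 44.0 ± 1.92 to 55.6 ± 0.967 CPM (log2 fold change 0.34). Under offsets for GC content and length the AXIN1 difference was 0.11, still past the threshold. AXIN2 made up 15.6% ± 1.25 of the summed AXIN level per kb in shCtrl and 15.9% ± 0.844 in shMEX3A, a difference within the spread of the libraries.

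TCF7L2, the TCF factor that pairs with beta-catenin in intestinal epithelium and many tumours, showed the largest difference among the 6 tested genes. Its level was 61.2, 57.9 and 57.3 CPM in shCtrl and 96.8, 99.7 and 100 CPM in shMEX3A. The libraries of each group lay close together, and the groups were far apart. The mean rose 1.68-fold, from 58.8 ± 2.10 to 98.8 ± 1.79 CPM (log2 fold change 0.75, SE 0.0372, 95% interval 0.67 to 0.82, adjusted p = 4.27e-20, edgeR quasi-likelihood test, n = 3 each). TCF7L2 spans 112950250 to 113167678 of chromosome 10, plus strand,, and 4.45% of its exon bases lie under the antisense gene AL158212.2. LEF1, the relative with the same DNA-binding domain that is often induced by Wnt signals (chromosome 4, 108047545 to 108168956), had 0, 1 and 1 counts in shCtrl and 3, 3 and 0 in shMEX3A. The groups overlapped, and the counts of 2 and 6 gave a ratio of 2.93 with a 95% counting interval from 0.523 to 29.6.

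The 4 TCF and LEF genes differed in their moves. TCF7 fell from 2.98 ± 0.274 to 1.52 ± 0.0846 CPM (log2 fold change -0.98), and TCF7L1, often a repressor, rose from 20.7 ± 1.10 to 24.1 ± 1.61 CPM (0.21). Offsets for GC content and length ended the TCF7L1 call (0.11, adjusted p = 0.0884, edgeR quasi-likelihood test). Per kilobase of exon, TCF7L2 held 63.6% ± 1.15 of the family level in shCtrl and 72.3% ± 1.16 in shMEX3A. The share of TCF7L1 went from 34.2% ± 1.22 to 26.9% ± 1.17 and that of TCF7 from 2.16% ± 0.138 to 0.745% ± 0.0435. The family sum went from 13.7 ± 0.476 to 20.3 ± 0.535 CPM per kb, most of it TCF7L2.

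**Figure D2:**
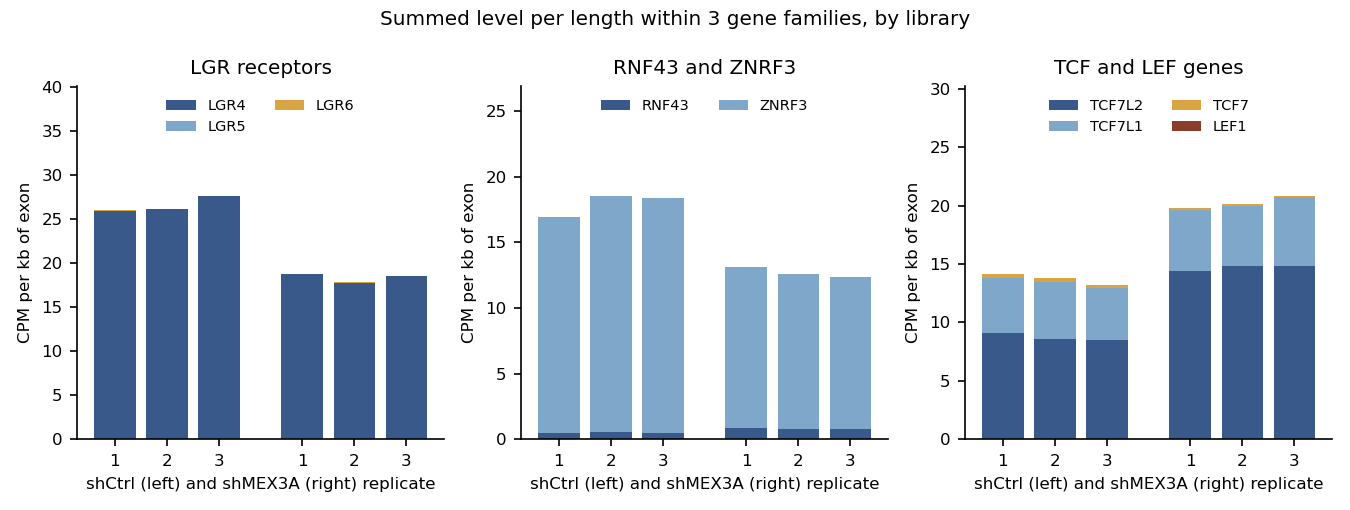
Stacked bars of CPM per kb of exon (y axis) for the LGR receptors, the ligases RNF43 and ZNRF3, and the TCF and LEF genes, with 1 bar per library (shCtrl replicates left, shMEX3A replicates right). LGR4, ZNRF3 and TCF7L2 fill most of each bar, and the sums are lower in shMEX3A for the first and second family and higher for the TCF and LEF genes.

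SOX9, a transcription factor of crypt base and progenitor cells, was higher in every shMEX3A library. Its level was 87.3, 88.7 and 81.0 CPM in shCtrl and 129, 129 and 131 CPM in shMEX3A. No library of one group came near the other group. The rise was 1.51-fold, from a mean of 85.7 ± 4.13 to 129 ± 1.26 CPM (log2 fold change 0.60, SE 0.0358, 95% interval 0.52 to 0.67, adjusted p = 1.49e-17, edgeR quasi-likelihood test, n = 3 each). SOX9 spans 72121020 to 72126420 of chromosome 17, plus strand, and shares no exon base with another gene.

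ASCL2, the basic helix-loop-helix factor of LGR5-positive crypt cells (chromosome 11, 2268495 to 2270952), was near the limit of detection. It had 4, 3 and 6 counts in shCtrl and 1, 2 and 0 in shMEX3A. Each shMEX3A library lay below each shCtrl library, and the summed counts of 13 and 3 gave a ratio of 0.225 with a 95% counting interval from 0.0411 to 0.819, which covers counting error only. When the filter on low counts was dropped, the ASCL2 difference had an adjusted p of 0.129 (edgeR quasi-likelihood test).

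**Figure D3:**
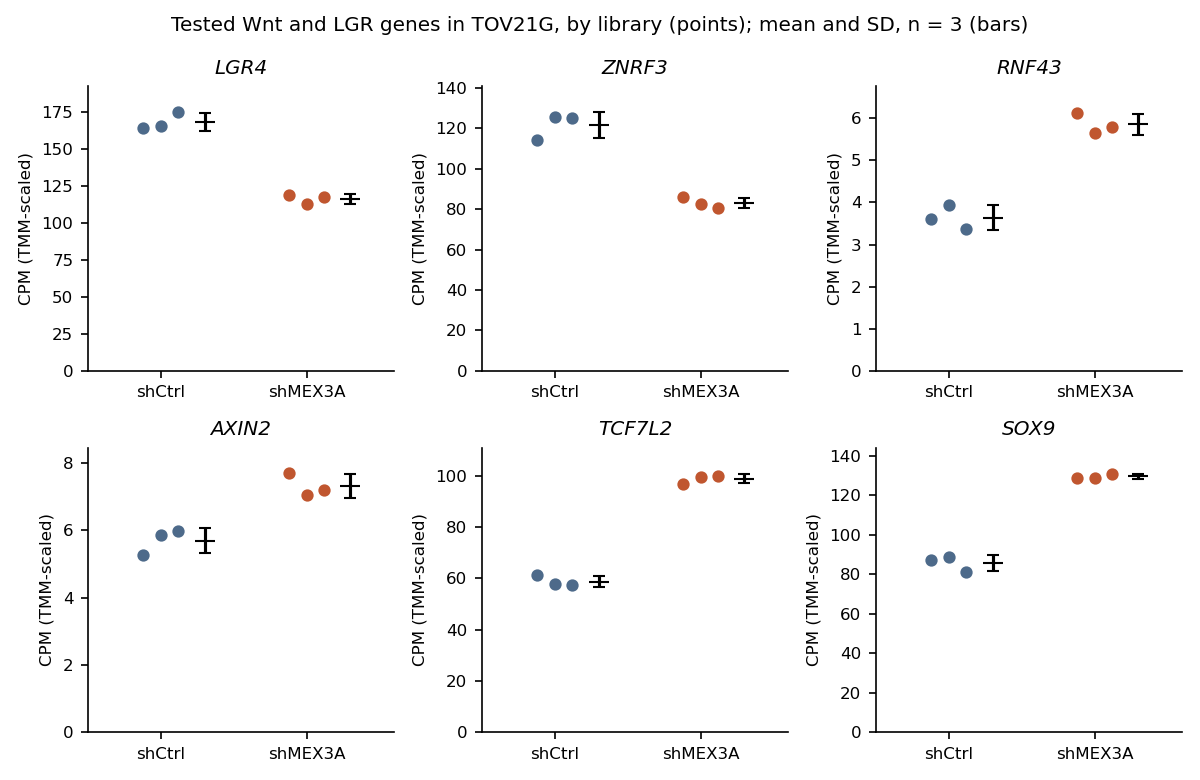
CPM after TMM scaling (y axis, starting at 0) of the 6 tested genes in each of the 6 libraries (points), with mean and SD of 3 libraries beside them. LGR4 and ZNRF3 are lower in all 3 shMEX3A libraries and RNF43, AXIN2, TCF7L2 and SOX9 higher, with no overlap of the groups.

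**Figure D4:**
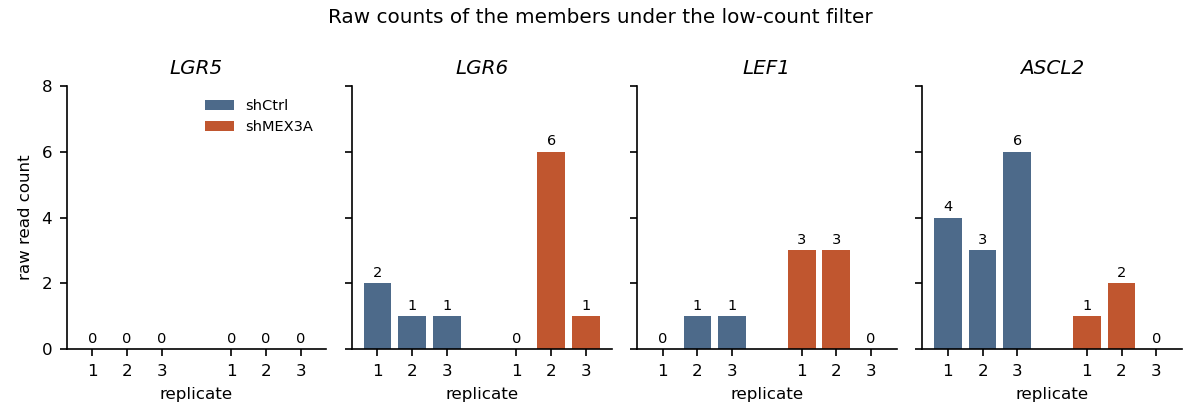
Raw read counts (y axis) of LGR5, LGR6, LEF1 and ASCL2 in the 3 shCtrl and 3 shMEX3A libraries. LGR5 has 0 counts throughout, and no library exceeds 6 counts for the other genes.

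The order of levels among the 6 tested genes changed between the groups. Per kilobase of exon, LGR4 was first in shCtrl at 26.6 ± 0.932 CPM per kb, ahead of SOX9 at 21.8 ± 1.05, ZNRF3 at 17.5 ± 0.911 and TCF7L2 at 8.72 ± 0.311. In shMEX3A, SOX9 was first at 32.9 ± 0.321 CPM per kb, followed by LGR4 at 18.4 ± 0.539, TCF7L2 at 14.7 ± 0.265 and ZNRF3 at 11.9 ± 0.376. AXIN2 at 1.09 ± 0.0717 and 1.40 ± 0.0669 CPM per kb and RNF43 at 0.485 ± 0.0389 and 0.780 ± 0.0329 CPM per kb were lowest in both groups. Neighbours in either order were further apart than their SDs. Among all tested genes, 89.2% had a lower level per kb than SOX9 and 18.3% a lower one than RNF43. The lengths include exon bases under other genes, 73.9% of those of RNF43 and 25.2% of those of AXIN2. Reads there may not have been counted, which would understate both levels, and the part of this in their order and rank was not tested. The genes whose log2 CPM was most like that of TCF7L2, the member with the smallest p, were the proton pump subunit ATP6V0C (Pearson r = 0.9999), the mitochondrially encoded COX2 (r = 0.9999) and the guanine nucleotide exchange factor ARHGEF4 (r = 0.9998), over 6 libraries and 10086 candidate genes. These libraries fall into the same 2 groups, so any gene that parts them evenly gives a high r, and the values are a description.

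The rest of the Wnt pathway, together with other intestinal stem cell markers, was read from 122 other genes in lists, each gene counted once. Of these, 93 were tested, 44 were higher and 35 lower in shMEX3A, 14 were not called, and the median log2 fold change was 0.15 beside -0.01 over all tested genes. That is 84.9% called, beside 69.7% over all tested genes.

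Ligands moved in both directions. Of 21 genes for Wnt ligands and their secretion, 11 were tested, 6 were higher and 4 lower (4 and 4 under GC and length offsets, 5 and 6 with no filter on low counts), with a median of 0.20. The filter left out WNT10B, with 10, 7 and 19 counts in shCtrl and 2, 1 and 1 in shMEX3A, and WNT8B, with 8, 4 and 6 counts in shCtrl and 0 in each shMEX3A library. WNT7B was the most abundant named ligand and rose from 63.2 ± 2.80 to 130.2 ± 2.58 CPM (log2 fold change 1.04). WNT3A, a classical activator of beta-catenin signalling, had 3, 3 and 0 counts in shCtrl and 37, 34 and 17 in shMEX3A, a log2 fold change of 3.75 (SE 0.521) that rests on few counts. WNT6 fell from 7.37 ± 0.370 to 3.05 ± 0.0161 CPM (-1.27) and WNT2B from 16.2 ± 1.12 to 8.95 ± 0.353 CPM (-0.86). Among the 4 R-spondins, the ligands of the LGR receptors, only RSPO3 was tested. It had 5, 11 and 8 counts in shCtrl and 31, 22 and 26 in shMEX3A, and rose by 1.67 on the log2 scale (SE 0.391).

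Of 15 Frizzled receptors and co-receptors, 14 were tested, 7 were higher and 5 lower, with a median of 0.18. FZD2 rose from 32.4 ± 0.752 to 67.2 ± 2.67 CPM (log2 fold change 1.05) and the co-receptor LRP5 from 62.5 ± 1.59 to 107 ± 4.74 CPM (0.78). FZD4 fell from 257 ± 9.68 to 151 ± 0.786 CPM (-0.77) and FZD6 changed by -0.49, or -0.27 under GC and length offsets. Of 17 secreted and membrane inhibitors, 8 were tested, 2 were higher and 4 lower (1 and 4 with those offsets), with a median of -0.07. DKK1, which blocks LRP5 and LRP6, fell from 143 ± 5.48 to 35.1 ± 0.383 CPM (-2.02), and its co-receptor KREMEN2 changed by -0.65. The Wnt-binding SFRP1 rose from 76.3 ± 0.862 to 109 ± 2.17 CPM (0.52). KREMEN1 rose by 0.19 on the log2 scale, but under the offsets its difference was 0.04 with an adjusted p of 0.240 (edgeR quasi-likelihood test).

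All 22 Dishevelled and destruction complex genes were tested, with 13 higher, 5 lower and a median of 0.34. Beta-catenin itself, CTNNB1, rose from 453 ± 24.8 to 639 ± 32.6 CPM (log2 fold change 0.50). DVL3, which relays the Frizzled signal, rose from 183 ± 5.85 to 278 ± 4.54 CPM (0.60) and the kinase GSK3A by 0.62 on the log2 scale. The casein kinase CSNK1A1 changed by -0.67 and the deubiquitinase USP34 by -0.48, and another gene covers 37.4% of the CSNK1A1 exon bases. The Dishevelled antagonists NKD1 and NKD2 went in opposite directions at low levels, NKD1 from 1.63 ± 0.245 to 0.428 ± 0.0424 CPM (-1.92) and NKD2 from 0.341 ± 0.0860 to 1.21 ± 0.283 CPM (1.83).

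For the nucleus, the list of 16 genes mixed TCF factors, co-activators and co-repressors. All 16 were tested, with 10 higher, 4 lower and a median of 0.19. With offsets for GC content and length the split was 6 higher and 6 lower. BCL9L, a beta-catenin co-activator, rose from 91.9 ± 3.69 to 288 ± 7.22 CPM (log2 fold change 1.65), and another gene covers 38.8% of its exon bases. The co-repressor CTBP1 rose by 0.53 on the log2 scale (0.29 with the offsets). The Groucho-type co-repressor TLE2 changed by -0.49 and the acetyltransferase EP300 by -0.22. The other TLE genes went both ways, with TLE1 (0.58), TLE3 (0.22) and TLE5 (0.07) called higher and TLE4 (-0.27) lower.

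Other genes commonly listed as Wnt targets were more often lower than higher. Of 16, 14 were tested, 4 were higher and 9 lower, with a median of -0.61. That is 92.9% called, beside 69.7% over all tested genes (34.0% higher, 35.6% lower). DKK1, NKD1 and TCF7 are also in the lists above. The falls with the smallest p were those of DKK1 and of BAMBI, a TGF-beta pseudoreceptor. BAMBI went from 55.2 ± 1.35 to 17.6 ± 0.655 CPM (log2 fold change -1.65). NKD1, at a low level, had a larger fold change than BAMBI (-1.92). CCND1, cyclin D1, rose from 247 ± 1.93 to 378 ± 8.98 CPM (0.61) and the ephrin receptor EPHB2 from 14.5 ± 0.592 to 29.7 ± 0.990 CPM (1.03).

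Of 20 other intestinal stem cell markers, 15 were tested, 2 were higher and 10 lower, with a median of -0.60. That is 80% called, beside 69.7% over all tested genes. TNFRSF19, CD44, EPHB2 and EPHB3 are also in the list of Wnt targets, so the 2 lists are not separate results. TNFRSF19, a TNF receptor family member of crypt stem cells, fell from 63.5 ± 3.19 to 29.5 ± 0.873 CPM (log2 fold change -1.11), and ZBTB38 changed by -0.68. EPHB2 and RGMB, a co-receptor for bone morphogenetic proteins, were the 2 that rose, RGMB by 0.31 on the log2 scale with 45.6% of its exon bases covered by another gene. SOX9 and TCF7L2 rose, and the receptor LGR4 fell, in the same libraries. The defining crypt markers LGR5 and OLFM4 had no counts in any library.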

How the data were processed

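The authors deposited 1 table of raw read counts, whole numbers per gene in 6 library columns. The submitters' processing notes name GRCh38 and the tools STAR, fastp 0.20.0, edgeR 4.0.16 and HTSeq 2.0.4, with roles, annotation release and strand setting not given in the sources used here. Per the labels' protocols, a KAPA mRNA kit was used on total RNA.

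The comparison used edgeR 4.0.16 in R 4.3.3 on these counts. After filterByExpr, 15679 genes entered a robust quasi-likelihood fit with TMM factors and 4 residual degrees of freedom. Benjamini-Hochberg adjustment ran over all of them, and calls were made at 0.05. Standard errors came from the F statistic. Levels per kb use the exon union of GENCODE 29, which also gave coordinates and overlaps, and promoters came from RefSeq. Intervals of low counts are exact and cover counting error only. No pair of libraries was alike enough to be a duplicate (chi-square over its degrees of freedom 2.69 to 6.15 within groups). One marker of the labelled cell type is not reported here.

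The members and lists were chosen with earlier results of these data known. Named genes are all members, the MEX3 family and, per list, the 2 called genes with the smallest p in each direction. Genes compared for likeness averaged at least 3 log2 CPM. AXIN1, CTNNB1, TCF7, TCF7L1, TLE1, TLE3, TLE4, TLE5, NKD1, NKD2, WNT8B and WNT10B were named outside the rule after their values were seen. So were cell type markers and the genes of the planar polarity, SOX and Notch lists. Alternatives covered scaling (size factors of DESeq2 1.42.0 or upper quartiles), low counts (every gene, or at least 1 CPM in at least 3 libraries), the test (DESeq2 or voom in limma 3.58.1), a block for the replicate number, removal of mitochondrially encoded genes, offsets for GC content and length (splines with 5 degrees of freedom), and removal of each library.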

Additional observations from a re-analysis of the deposited data

How the results depend on the processing

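The 6 tested members kept their direction and their call under all 15 alternatives. Over these, the log2 fold change ranged from -0.55 to -0.41 for LGR4, -0.71 to -0.53 for ZNRF3, 0.57 to 0.74 for RNF43, 0.28 to 0.40 for AXIN2, 0.73 to 0.78 for TCF7L2 and 0.55 to 0.65 for SOX9, and the highest adjusted p was that of AXIN2 (0.00849). Offsets for GC content and length could be given to 92.4% of tested genes. With them, the other Wnt pathway and stem cell marker genes split 38 higher and 38 lower, where the main fit gave 44 and 35. The calls of KREMEN1 (log2 fold change 0.04) and TCF7L1 (0.11) were lost there, and that of MEX3B, which was 0.21, without shCtrl replicate 3 (0.15, adjusted p = 0.0506, edgeR quasi-likelihood test). RSPO3, WNT3A and NKD2 were not tested at a minimum of 1 CPM. The cause of these changes was not tested. Calls over all genes numbered 4969 to 5454 higher and 5122 to 5877 lower. The groups share replicate numbers, but same-numbered libraries did not deviate together (correlations from -0.08 to 0.08, 2 of 6 libraries best correlated with their own number). Adding the replicate block, the fit called 5247 genes higher and 5504 lower, AXIN2 stood at 0.37 (adjusted p = 0.00157) and no member lost its call. Depth limits LGR5, LGR6, LEF1 and ASCL2, whose differences were not detectable or rest on at most 6 counts a library.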

Other observations

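Lists of planar polarity, SOX and Notch genes were drawn up after the data were seen, and their genes are given as values. Of 19 planar polarity and non-canonical Wnt genes, 18 were tested, 10 were higher and 5 lower in shMEX3A, with a median log2 fold change of 0.27. That is 83.3% called, where 69.7% of all tested genes were. VANGL2, a core planar polarity membrane protein, rose from 8.20 ± 0.178 to 19.5 ± 0.272 CPM (log2 fold change 1.25, n = 3 each). SCRIB, a polarity scaffold, rose from 124 ± 2.91 to 245 ± 7.90 CPM (0.98), PRICKLE3 by 0.84 and the cadherin CELSR2 by 0.74 on the log2 scale (0.48 with offsets for GC content and length). PRICKLE1 fell from 43.0 ± 1.99 to 20.3 ± 0.172 CPM (-1.08).

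Of 18 SOX genes other than SOX9, 6 were tested, 5 were higher and 0 lower (83.3% called, 69.7% over all tested genes). The median log2 fold change of the 6 was 0.60. SOX4 was the most abundant of them and rose from 392 ± 4.80 to 459 ± 4.99 CPM (0.23). SOX12 rose from 95.5 ± 4.18 to 158.8 ± 6.45 CPM (0.73) and SOX13 by 0.58 on the log2 scale (0.37 with the offsets). In edgeR's fit all 6 estimates were above 0, the lowest that of SOX4, so none was lower at an unadjusted p either, and DESeq2 called 0 lower. This holds only for the 6 tested genes, since the 12 others were under the filter on low counts.

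Of 22 Notch pathway genes, which share the crypt niche with Wnt signals, 17 were tested, 5 were higher and 8 lower. The median log2 fold change was 0.01. Called genes made up 76.5% of those tested, not far from the 69.7% over all tested genes. The receptor NOTCH3 fell from 66.9 ± 2.46 to 27.7 ± 1.87 CPM (-1.27) and NOTCH2 from 221 to 134 CPM (-0.72). The other receptors rose, NOTCH1 from 81.1 ± 2.12 to 104 ± 2.48 CPM (0.36) and NOTCH4 by 1.69 at low counts. The ligand JAG1 changed by -0.51 and the Fringe enzyme LFNG by -1.45, while the co-activator MAML1 rose by 0.66 and the feedback gene NRARP by 1.13 on the log2 scale. Of the tested HES and HEY genes, HES1 was called lower (-0.27). HEY1 was also called lower (-0.32, adjusted p = 0.0454, edgeR quasi-likelihood test), with overlapping groups, and HEYL was not called (0.25).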
